A study of Mus musculus with 7 samples.

Results

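The transcripts described here are those of 8 microtubule-associated proteins in Beta-TC6 cells, chosen by gene symbol: Mtap1a, Mtap1b, Mtap1s, Mtap2, Mtap4, Mtap6, Mtap7 and Mtap9. These are 8 of the 23329 symbols in the deposited count table, and all 8 passed the low-count filter that left 12480 genes for testing. The symbols are older forms of Map1a, Map1b, Map1s, Map2, Map4, Map6, Map7 and Map9; the similar symbol Mtap belongs to an enzyme, methylthioadenosine phosphorylase, and was not included. The family was picked with the IL1B against vehicle differences of these libraries already known, so its values in that contrast are given as a description. Beta-TC6 is an insulin-secreting line grown from a pancreatic beta-cell tumour of a transgenic mouse. The tested cells were wild type and given the inflammatory cytokine interleukin-1 beta, IL1B (n = 3 libraries), and they were set against wild-type cells treated with vehicle (n = 4). Both groups had been exposed for 1 h to 10 µM of forskolin, which raises cyclic AMP and synchronises cellular clocks. The labels give no IL1B dose or duration and name no separate cultures for the replicates, so differences are judged only against the spread between these libraries, which may be technical.

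Microtubules are hollow polymers of tubulin that grow and shrink from their ends. Structural microtubule-associated proteins bind along the lattice, where they slow its disassembly, link it to actin or membranes, or govern which motor proteins can walk on it. They are best known from neurons. In beta cells microtubules serve as tracks for insulin granules, and the density of the network influences how many granules reach the cell surface.

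Library totals ran from 5335607 to 7513934 counts. Each member had between 97 and 2986 counts in a library. Levels below are CPM (counts per 1e6, taken over the tested genes and scaled by TMM, a correction for library composition), and fold changes are log2 values of IL1B over vehicle with their standard error (SE). The cells carried beta-cell transcripts at high level: the summed level of 11 beta-cell markers was 36628 to 37907 CPM with IL1B and 33407 to 38804 CPM with vehicle. Ins1, Ins2 and Iapp make up most of that sum, and within the list the transcription factor genes Pdx1 (log2 fold change -0.56, SE 0.05) and Mafa (-0.47, SE 0.06) fell with IL1B (adjusted p = 3.0e-07 and 7.0e-06 by edgeR), by more than any member. Since several members are neuronal markers in other settings, markers of neurons were also summed. All 11 were detected and 8 passed the filter, with a sum of 2334 to 2548 CPM with IL1B and 2197 to 2331 CPM with vehicle. Syp (means of 904 CPM with IL1B and 813 CPM with vehicle) and Nefm (865 and 719 CPM) make up most of it. Within that list Tubb3 and Nefm were higher and Nefl lower with IL1B (edgeR adjusted p = 8.4e-05, 0.0051 and 0.0046). The transmitter genes Slc17a6, Slc17a7 and Gad1 averaged below 1 CPM in both groups. Another transmitter gene, Th, averaged 72.6 CPM with IL1B and 84.9 CPM with vehicle, and Rbfox3 6.31 and 4.74 CPM. The other islet endocrine list, 7 markers of which 3 passed, summed to 535 to 589.9 CPM with IL1B and 578 to 638 CPM with vehicle. Gcg (means of 267 CPM with IL1B and 311 CPM with vehicle) and Sst (293 and 288 CPM) make up most of it. Irx2, at means of 5.16 and 9.19 CPM, fell in it (-0.83, SE 0.17, adjusted p = 0.0023 by edgeR). Glial markers summed to 43.4 to 45.5 CPM with IL1B and 37.0 to 46.2 CPM with vehicle, with Olig1 and Olig2 at 0 in every library and Aqp4 higher with IL1B, at 12.4 ± 0.743 CPM, against 6.59 ± 1.31 CPM with vehicle (SD, n = 3 and 4; edgeR adjusted p = 4.1e-04). Mbp made up most of the glial sum, at means of 29.0 CPM with IL1B and 32.5 CPM with vehicle. No other marker of the 6 lists was past the threshold. Sums over 6 stromal markers were 2.91 to 5.15 CPM with IL1B and 4.70 to 6.52 CPM with vehicle, and over 6 leukocyte markers 3.21 to 4.81 and 2.41 to 4.23 CPM. The part of any of these in the members' values was not tested. In such bulk samples, fewer cells of a type and less RNA per cell cannot be told apart.

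IL1B-treated and vehicle cells differed by 1.28-fold or less in these transcripts, and the members did not move as a block. Mtap1s was higher with IL1B, and Mtap1a, Mtap6 and Mtap9 were lower, past an edgeR adjusted p of 0.05 in the fit of all genes. The other 4 members, Mtap1b, Mtap2, Mtap4 and Mtap7, were not past it. Of all 12480 genes tested, 11.0% were past the threshold, 7.76% higher and 3.25% lower, so that 70.5% of calls were increases (60.3% with total-count scaling). Because this contrast was in view when the family was picked, nothing is read from the members' count against that share. The 4 members past the threshold differed by 1.19-fold to 1.28-fold, against a median of 1.41-fold over the 1374 genes past it. The median log2 fold change was -0.08 over the 8 members and -0.0087 over all genes tested. Taken without sign, the median was 0.245 over the members and 0.114 over all genes. As the family was picked with this contrast in view, nothing is read from that difference either. Values of the groups did not overlap in 5 members, Mtap1a, Mtap1b, Mtap1s, Mtap6 and Mtap9; among all tested genes the groups did not overlap in 21.0%.

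**Figure D1:**
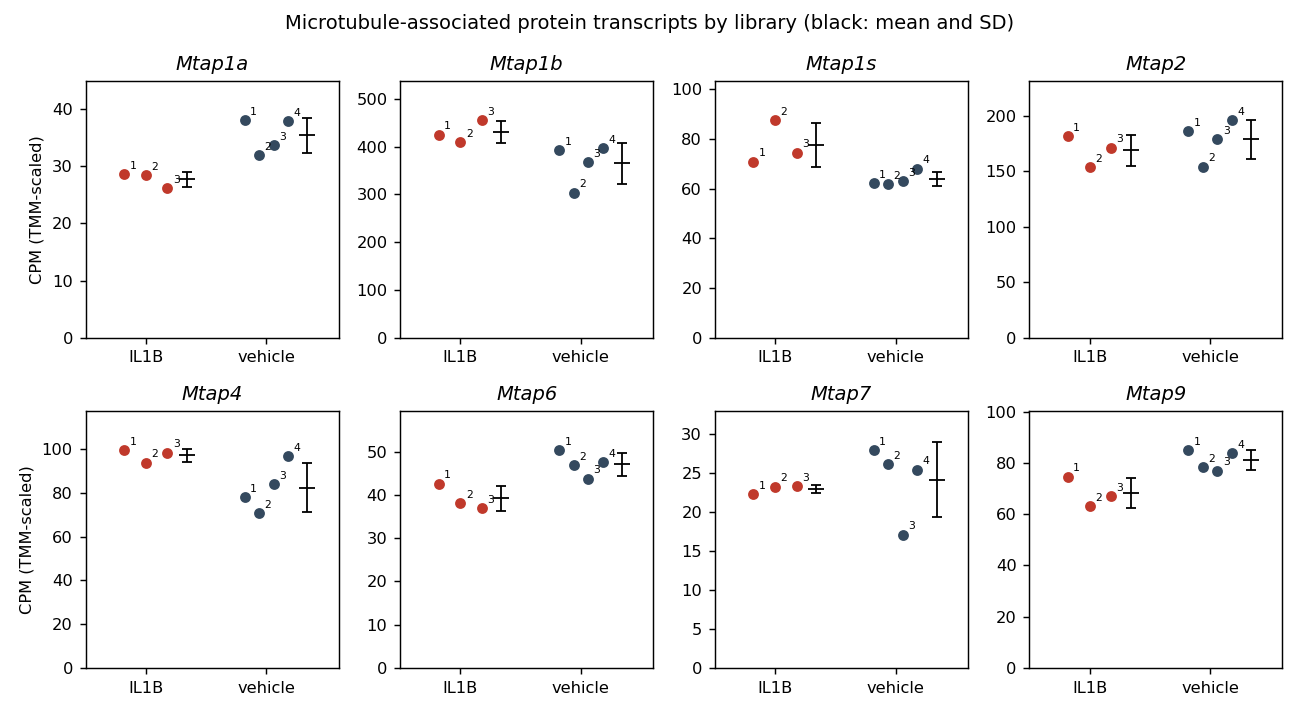
TMM-scaled CPM of each member (y axis, from 0) in 3 IL1B libraries (red, left) and 4 vehicle libraries (dark blue, right), numbered as in the count table, with group mean and SD in black. All IL1B points lie below all vehicle points for Mtap1a, Mtap6 and Mtap9 and above them for Mtap1b and Mtap1s, and the groups overlap for Mtap2, Mtap4 and Mtap7.

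**Figure D2:**
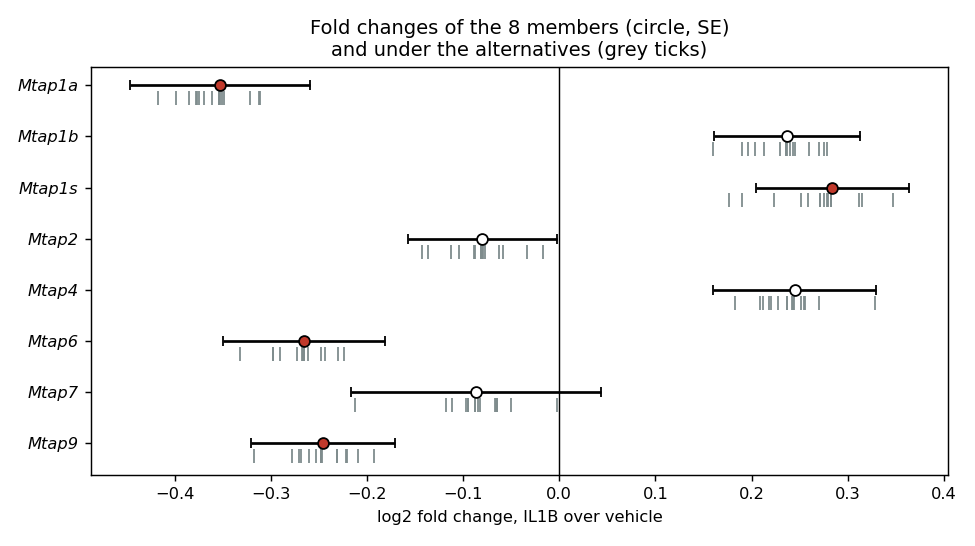
Log2 fold change of IL1B over vehicle (x axis) for each member, with its SE; filled circles are past the edgeR threshold over all genes and open circles are not. Grey ticks give the same value under 16 alternative settings, which stayed on the same side of 0 for every member, while those of Mtap2 and Mtap7 came within 0.02 and 0.0021 of it.

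The MAP1 proteins Mtap1a, Mtap1b and Mtap1s are made as precursors that are cut into a heavy and a light chain, both of which bind microtubules. Mtap1b is the form of growing axons and Mtap1a that of mature neurons, while Mtap1s is a short relative found in many tissues. In these cells Mtap1a and Mtap1b stood on opposite sides of 0 in their fold change with IL1B.

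Mtap1a (chromosome 2, 121289600 to 121310832, plus strand, GRCm38) had 28.6, 28.4 and 26.1 CPM with IL1B, against 38.0, 31.9, 33.7 and 37.9 CPM with vehicle. Every IL1B library lay below every vehicle library. The means were 27.7 ± 1.36 CPM (SD, n = 3) and 35.4 ± 3.06 CPM (SD, n = 4), a log2 fold change of -0.35 (SE 0.09), the largest in size of the 8. In size it exceeded that of 86.1% of all tested genes. The call was lost without IL1B library 3 (log2 fold change -0.31), vehicle library 1 (-0.31) or vehicle library 4 (-0.32). Exons of Mtap1a overlap those of Ppip5k1 on the opposite strand by 272 bases, and no strand setting is given, so reads there cannot be told apart. Ppip5k1, an inositol pyrophosphate kinase gene, averaged 78.9 ± 3.94 CPM with IL1B and 81.4 ± 5.65 CPM with vehicle, close to each other (log2 fold change -0.05 ± 0.07 SE; adjusted p = 0.784 by edgeR).

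Mtap1b (chromosome 13, 99421446 to 99516540, minus strand) was the most abundant member, at 425, 409.9 and 455 CPM with IL1B, against 393, 304, 367 and 397 CPM with vehicle. All 3 IL1B libraries were above the vehicle libraries, of which library 2 was lowest. The means were 430.3 ± 23.2 CPM with IL1B and 365 ± 43.1 CPM with vehicle (SD, n = 3 and 4), a log2 fold change of 0.24 (SE 0.08) that was not past the threshold. Without vehicle library 2 the difference was smaller, 0.16 (SE 0.05), and past it. It was also past it without vehicle library 1 (0.28) or 4 (0.28).

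Mtap1s (chromosome 8, 70905932 to 70917529, plus strand) had 71.0, 87.6 and 74.6 CPM with IL1B, against 62.3, 61.9, 63.1 and 68.1 CPM with vehicle. The groups did not overlap, and IL1B library 2 stood above the other two of its group. The means were 77.7 ± 8.76 CPM with IL1B and 63.8 ± 2.91 CPM with vehicle (SD, n = 3 and 4), a log2 fold change of 0.28 (SE 0.08). The call was lost without IL1B library 2 (log2 fold change 0.19), vehicle library 1 (0.27) or vehicle library 3 (0.28).

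Set against each other within a library, Mtap1b and Mtap1a need no scaling, and their longest coding transcripts are nearly equal in length (11.81 and 11.82 kb). These ratios were chosen after the values were seen and have no test. There were 14.9, 14.4 and 17.4 Mtap1b counts per Mtap1a count with IL1B, against 10.3, 9.50 and 10.9 with vehicle libraries 1 to 3 and 10.5 with library 4. The ratio was 15.6 ± 1.61 with IL1B and 10.3 ± 0.584 with vehicle (SD, n = 3 and 4), and the groups did not overlap. Mtap1s counts per Mtap1a count were 2.81 ± 0.301 with IL1B and 1.81 ± 0.129 with vehicle (SD, n = 3 and 4), also without overlap. The share of Mtap1b in the summed CPM of the 8 members was 45.0% to 47.8% with IL1B and 39.3% to 42.7% with vehicle. The sum itself overlapped, at 898 to 953 CPM with IL1B and 773 to 952 CPM with vehicle.

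**Figure D3:**
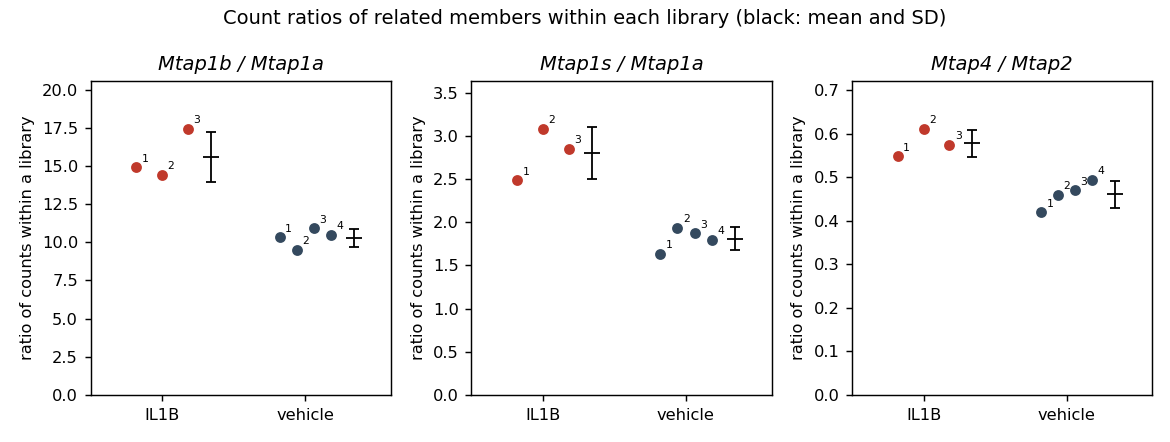
Ratio of raw counts within a library (y axis, from 0) for Mtap1b over Mtap1a, Mtap1s over Mtap1a and Mtap4 over Mtap2, with IL1B libraries in red on the left, vehicle libraries in dark blue on the right, and mean and SD in black. In each panel all IL1B libraries lie above all vehicle libraries. The pairs were chosen after the values were seen, with the fold change above 0 on top, and have no test.

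Promoters were compared because the MAP1 genes stood on both sides of 0 and because the series concerns NF-kB and circadian enhancers. RefSeq windows (GRCm38.p6) matched 7 of the 8 members, with 9 start sites between them; Mtap6 had no entry. Each window of 250 bases before the start was searched on both strands for the 10-base NF-kB consensus, for the E-box CACGTG bound by clock factors, for the full cyclic AMP response element TGACGTCA, and for the GC box GGGCGG. None of the first 3 motifs was found in any of the 9 windows; 3.90%, 6.02% and 1.55% of all 32851 promoter windows hold them. A GC box was in the windows of Mtap1a, Mtap1b, Mtap2 and Mtap7 and in the first but not the second window of Mtap4. Counted by window rather than by gene, 32.7% of all windows hold one. The Mtap9 windows overlap each other, so the 9 are not separate. The windows of Mtap1b and of the 3 members past the threshold that have one are shown, 5′ to 3′ toward the gene, with GC boxes on either strand in capitals. Mtap1a (chr2:121289352-121289601, plus strand) holds 4, a pair of which overlap by 1 base, Mtap1b (chr13:99516603-99516852, minus strand) holds 1, and Mtap1s (chr8:70905724-70905973, plus strand) and the first Mtap9 window (chr3:82357822-82358071, plus strand) hold none. Their GC content was 66.0%, 66.4%, 56.4% and 55.6%, against a median of 52.4% over all windows.
Mtap1a: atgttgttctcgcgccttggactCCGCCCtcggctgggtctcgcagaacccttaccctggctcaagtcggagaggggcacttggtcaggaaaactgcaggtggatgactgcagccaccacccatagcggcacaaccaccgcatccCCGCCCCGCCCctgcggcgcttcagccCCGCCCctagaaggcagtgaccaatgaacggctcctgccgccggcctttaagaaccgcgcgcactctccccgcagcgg
Mtap1b: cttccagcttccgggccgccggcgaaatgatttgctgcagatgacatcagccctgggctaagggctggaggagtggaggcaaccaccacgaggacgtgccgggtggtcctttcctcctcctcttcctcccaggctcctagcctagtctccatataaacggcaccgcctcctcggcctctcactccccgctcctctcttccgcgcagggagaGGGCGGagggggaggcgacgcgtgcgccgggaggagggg
Mtap1s: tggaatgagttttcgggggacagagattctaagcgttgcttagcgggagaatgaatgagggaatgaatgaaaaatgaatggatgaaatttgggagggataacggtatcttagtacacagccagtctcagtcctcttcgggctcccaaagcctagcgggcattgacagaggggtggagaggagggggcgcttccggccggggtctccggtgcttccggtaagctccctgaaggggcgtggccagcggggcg
Mtap9: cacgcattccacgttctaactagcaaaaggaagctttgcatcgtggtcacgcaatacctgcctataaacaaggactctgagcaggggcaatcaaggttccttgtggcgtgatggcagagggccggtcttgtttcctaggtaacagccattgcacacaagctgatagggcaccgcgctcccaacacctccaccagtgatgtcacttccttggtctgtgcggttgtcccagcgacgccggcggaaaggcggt

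Mtap2 and Mtap4 belong with tau (Mapt) to a family that binds microtubules through repeats near the C terminus. Mtap2 is the classical marker of neuronal dendrites, and Mtap4 is the widespread form of non-neuronal cells. Neither was past the threshold.

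Mtap2 (chromosome 1, 66175273 to 66442583, plus strand) had 181, 154 and 171 CPM with IL1B, against 186, 154, 179 and 196 CPM with vehicle. The groups overlapped over most of their range, and library 2 was the lowest of each group. The means were 169 ± 14.1 CPM with IL1B and 179 ± 17.9 CPM with vehicle (SD, n = 3 and 4), a log2 fold change of -0.08 (SE 0.08). An antisense gene, Gm10558, shares 124 exon bases with it and has no value here.

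Mtap4 (chromosome 9, 109931460 to 110083955, plus strand) had 99.5, 93.9 and 98.5 CPM with IL1B, against 78.1, 70.8, 84.1 and 96.9 CPM with vehicle. Vehicle library 4 reached the IL1B libraries, and the other vehicle libraries lay below them. The means were 97.3 ± 2.98 CPM with IL1B and 82.5 ± 11.1 CPM with vehicle (SD, n = 3 and 4), a log2 fold change of 0.24 (SE 0.08). Without vehicle library 4 it was 0.33 (SE 0.08) and past the threshold. Mtap4 counts per Mtap2 count were 0.579 ± 0.0316 with IL1B and 0.461 ± 0.0312 with vehicle (SD, n = 3 and 4), without overlap. This pair, too, was chosen after the values were seen and has no test. It sets a member with a fold change above 0 over one below 0, and each of them overlapped on its own. The third relative, Mapt, was close to Mtap2 in its difference: 112 ± 7.13 CPM with IL1B and 119 ± 4.91 CPM with vehicle, a log2 fold change of -0.08 (SE 0.07).

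Of the remaining members, Mtap6 encodes the protein that keeps microtubules from falling apart in the cold, Mtap9 a protein of the mitotic spindle and aster, and Mtap7 a lattice protein that recruits conventional kinesin. The first 2 were lower with IL1B past the threshold.

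Mtap6 (chromosome 7, 99267447 to 99337137, plus strand) had 42.5, 38.1 and 36.9 CPM with IL1B, against 50.3, 46.8, 43.7 and 47.5 CPM with vehicle. The highest IL1B library and the lowest vehicle library, 42.5 and 43.7 CPM, nearly met. The means were 39.2 ± 2.96 CPM with IL1B and 47.1 ± 2.70 CPM with vehicle (SD, n = 3 and 4), a log2 fold change of -0.27 (SE 0.08). It was the member nearest the threshold among those past it, and the call was lost with DESeq2 (log2 fold change -0.27) and without IL1B library 2 (-0.24), IL1B library 3 (-0.22), vehicle library 1 (-0.23) or vehicle library 4 (-0.26).

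Mtap9 (chromosome 3, 82358044 to 82395268, plus strand) had 74.6, 63.2 and 67.0 CPM with IL1B, against 84.9, 78.3, 77.0 and 83.7 CPM with vehicle. All IL1B values were below all vehicle values. The means were 68.2 ± 5.82 CPM with IL1B and 81.0 ± 3.91 CPM with vehicle (SD, n = 3 and 4), a log2 fold change of -0.25 (SE 0.07). The call was lost with DESeq2 (log2 fold change -0.25) and without IL1B library 2 (-0.19), IL1B library 3 (-0.23), vehicle library 1 (-0.22) or vehicle library 4 (-0.23).

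Mtap7 (chromosome 10, 20148471 to 20281590, plus strand) had 22.3, 23.3 and 23.3 CPM with IL1B, against 27.9, 26.2, 17.1 and 25.4 CPM with vehicle. The IL1B libraries lay between vehicle library 3, which was lowest, and the other vehicle libraries. The means were 22.9 ± 0.568 CPM with IL1B and 24.1 ± 4.81 CPM with vehicle (SD, n = 3 and 4), and the log2 fold change was -0.09 (SE 0.13), the least precise of the 8. An antisense gene, Gm48249, shares 332 exon bases with it and has no value here.

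Per kilobase of the longest coding transcript the members spanned about an order of magnitude in level. In IL1B cells the order from high to low was Mtap1b (36.4 ± 1.96 CPM per kb), Mtap2 (27.0 ± 2.25), Mtap1s (23.5 ± 2.65), Mtap4 (16.0 ± 0.490), Mtap9 (11.0 ± 0.936), Mtap6 (7.96 ± 0.602), Mtap7 (5.40 ± 0.134) and Mtap1a (2.34 ± 0.115), each with its SD over 3 libraries. Vehicle cells had the same order, with Mtap1b at 30.9 ± 3.65, Mtap2 at 28.5 ± 2.86 and Mtap1a at 2.99 ± 0.259 CPM per kb (SD, n = 4). In vehicle the ranges of the neighbours Mtap1b and Mtap2 overlapped, as did those of Mtap4 and Mtap9. With IL1B the ranges of Mtap2 and Mtap1s overlapped. Mtap1a, whose transcript is longer than that of 98.7% of tested genes with a length, was lowest in each library on this scale. Over the union of all exons Mtap1b stayed first and Mtap1a last, while Mtap9 stood above Mtap1s in both groups and above Mtap2 in vehicle. Which transcript forms these cells make is not resolved by counts per gene.

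**Figure D4:**
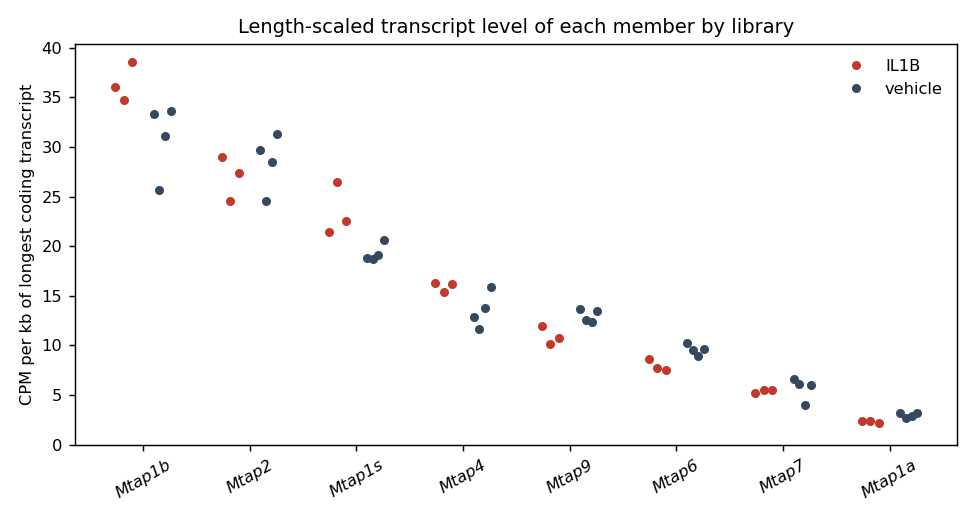
CPM per kb of the longest coding transcript (y axis, from 0) for each member, ordered by the vehicle mean, with 3 IL1B libraries in red and 4 vehicle libraries in dark blue. Levels run from Mtap1b at 36.4 with IL1B and 30.9 with vehicle to Mtap1a at 2.34 and 2.99.

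Length also set 1 vehicle library apart. Over all tested genes, Spearman's rho between transcript length and a library's deviation from its group mean was -0.020 to 0.018 for the IL1B libraries. For the vehicle libraries it was -0.558 in library 2 and 0.221 to 0.306 in libraries 1, 3 and 4 (across genes, which are not independent). Among the members the deviation of that library did not simply follow length. On the log2 scale it was -0.14 for Mtap1a (11.82 kb), -0.26 for Mtap1b (11.81 kb), -0.21 for Mtap2 (6.26 kb) and -0.21 for Mtap4 (6.09 kb), but -0.05 for Mtap9, which is as long as these last 2 (6.22 kb). For the shorter Mtap6 (4.92 kb), Mtap7 (4.25 kb) and Mtap1s (3.31 kb) it was -0.01, 0.14 and -0.04. With each library's trend on length and GC content removed, Mtap1b (log2 fold change 0.26, SE 0.05) and Mtap4 (0.25, SE 0.07) were past the threshold as well as the 4 members named above. With vehicle library 2 and IL1B library 2 left out together, Mtap1b (0.19) and Mtap4 (0.21) were past it with Mtap1a and Mtap9, while Mtap1s (0.18) and Mtap6 (-0.25) were not. IL1B library 2 had no such trend on length (rho 0.018), so that setting does not concern length alone.

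By the pattern of log2 CPM over the 7 libraries, the nearest of 10902 genes of at least 5 CPM were Eif4ebp2 to Mtap1a (Pearson r = 0.988), Ppm1b to Mtap1s (r = 0.988), Mapk8, the kinase JNK1, to Mtap6 (r = 0.995) and Hnf4g to Mtap9 (r = 0.989). The next 2 were Pisd-ps1 and Fam65a for Mtap1a, Ppm1k and Lonp1 for Mtap1s, Vps35 and Cln6 for Mtap6, and Glrb and Tat for Mtap9, with r of 0.980 to 0.987. Mapk8 itself was not past the threshold (log2 fold change -0.13, SE 0.07, adjusted p = 0.265 by edgeR). The r values are the highest picked from 10902 genes over only 7 libraries. They share the 2 groups and the libraries' own differences and are a description, with no link between the genes tested.

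Some other genes of the microtubule system, taken from 5 lists, differed by more than any member. Of 141 tested genes in the 5 lists, 17 rose and 4 fell by edgeR with adjustment over the whole table, a share of 14.9% against 11.0% of all genes. Their median log2 fold change was -0.02. The lists were drawn up with earlier results of these data known. Nothing is therefore read from this share or from that of each list below.

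Among 27 tested relatives of the members and other microtubule-binding proteins, 6 rose and 2 fell, a share of 29.6%. Their median log2 fold change was 0.04. Mtap7d1, a paralog of Mtap7, had 92.5, 111 and 106 CPM with IL1B, against 63.2, 66.6, 68.6 and 64.4 CPM with vehicle (log2 fold change 0.65 ± 0.07 SE; adjusted p = 2.3e-06 by edgeR). The groups were well apart, unlike those of Mtap7. Mtap7d2 and Mtap7d3 were not past the threshold, at -0.02 (SE 0.08) and 0.31 (SE 0.22). Mid1, a microtubule-bound ubiquitin ligase, rose to 63.7 ± 4.26 CPM with IL1B, against 40.5 ± 2.13 CPM with vehicle (edgeR adjusted p = 5.9e-06), and Prc1, which bundles spindle microtubules, to 268 ± 12.5 against 217 ± 6.52 CPM (edgeR adjusted p = 8.0e-04). Dcx, which encodes the neuronal protein doublecortin, fell to 187 ± 2.79 CPM with IL1B, against 243 ± 27.1 CPM with vehicle (log2 fold change -0.37 ± 0.08 SE; adjusted p = 0.0018 by edgeR).

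Of 16 tested tubulins 3 rose, all of the beta class, and none fell by edgeR, DESeq2 or limma-voom. The edgeR share was 18.8%. At an unadjusted edgeR p under 0.05, 2 were lower. Tubb2b rose to 60.2 ± 3.63 CPM with IL1B, against 35.2 ± 1.02 CPM with vehicle (log2 fold change 0.77 ± 0.08 SE; adjusted p = 4.9e-07 by edgeR), Tubb3 to 152 ± 1.68 against 113 ± 8.15 CPM (edgeR adjusted p = 8.4e-05), and Tubb2a to 326 ± 10.7 against 279 ± 16.0 CPM (edgeR adjusted p = 0.0146). Tubulin genes are close copies, so counts may be split between them. The Tubb2a call was lost without IL1B library 1 or 2 or vehicle library 1 or 4 (adjusted p 0.0527 to 0.0717), and the list had 6 increases without vehicle library 2.

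Of 28 tested plus-end, destabilising and severing proteins 3 rose and 1 fell, a share of 14.3%. Stmn4, a tubulin-sequestering stathmin, rose to 9.77 ± 0.804 CPM with IL1B, against 1.41 ± 0.397 CPM with vehicle (log2 fold change 2.75 ± 0.23 SE; adjusted p = 2.9e-08 by edgeR), the largest change in the 5 lists. Katna1, the catalytic subunit of the severing enzyme katanin, rose (0.32, SE 0.08, edgeR adjusted p = 0.0073), as did Stmn1 (0.22, SE 0.06, edgeR adjusted p = 0.0331), and the end-binding protein gene Mapre2 fell (-0.32, SE 0.06, edgeR adjusted p = 0.0016). The Stmn1 call was lost with upper-quartile or total-count scaling and without IL1B library 2 or 3 or vehicle library 1, 3 or 4 (adjusted p 0.0636 to 0.212 over these 7 settings).

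Of 36 tested transport motors 2 rose and 1 fell, a share of 8.33%. Klc3, a kinesin light chain gene, was at 10.7 ± 1.09 CPM with IL1B and 6.98 ± 1.14 CPM with vehicle (edgeR adjusted p = 0.0134), and the dynein light chain gene Dynll2 was higher by 0.23 on the log2 scale (SE 0.06, edgeR adjusted p = 0.0169). The neuronal kinesin heavy chain gene Kif5a was lower at -0.27 (SE 0.08, edgeR adjusted p = 0.0467), while Kif5b, the form found in most cells, was at 484 ± 10.1 CPM with IL1B and 480.0 ± 37.0 CPM with vehicle (0.01, SE 0.06). Kif5a lost its call when any library other than vehicle library 2 was left out (adjusted p 0.0719 to 0.145) and with DESeq2 (0.149), limma-voom (0.0504) or no low-count filter (0.0560). The Klc3 call was gone without IL1B library 2 (0.0691), without vehicle library 1 (0.0564) and with library 2 of both groups left out (0.0573). Dynll2 lost its call without IL1B library 2 (0.0906) or 3 (0.0591) or vehicle library 3 (0.0801).

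Of 34 tested kinases of these proteins and tubulin-modifying enzymes 3 rose and none fell by edgeR, DESeq2 or limma-voom. The edgeR share was 8.82%. At an unadjusted edgeR p under 0.05, 1 was lower. Vash1, which encodes a tubulin carboxypeptidase that removes the terminal tyrosine of alpha-tubulin, rose to 130.1 ± 6.47 CPM with IL1B, against 68.8 ± 3.98 CPM with vehicle (log2 fold change 0.92 ± 0.07 SE; adjusted p = 5.8e-09 by edgeR). Brsk1 and Ttbk1, kinases that phosphorylate tau, rose by 0.38 (SE 0.08, edgeR adjusted p = 0.0031) and 0.40 (SE 0.09, edgeR adjusted p = 0.0059).

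**Figure D5:**
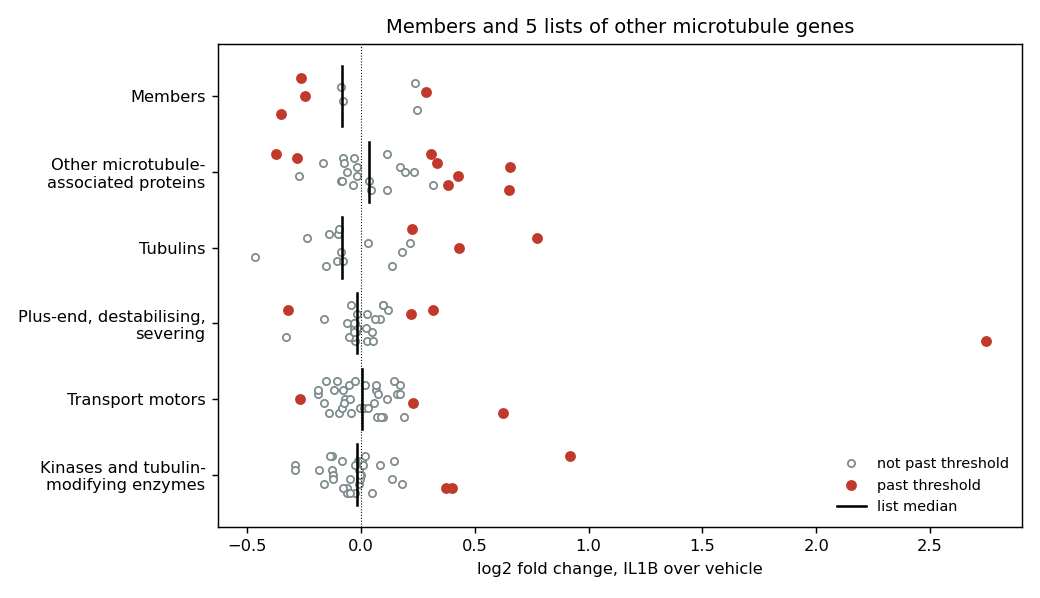
Log2 fold change of IL1B over vehicle (x axis) for the 8 members and for the tested genes of 5 lists of other microtubule genes; red points are past the edgeR threshold over all genes, open points are not, and black bars are list medians. Members lie between -0.35 and 0.28, while Stmn4 reaches 2.75, Vash1 0.92 and Tubb2b 0.77.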

How the data were processed

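RNA of Beta-TC6 cells was made into polyadenylated RNA libraries with the NEBNext Ultra II kit, per the labels' protocols. The authors deposited raw counts per gene symbol; per the submitters' processing notes the build was mm10, and tools named for the whole study include STAR and RSEM, without roles. The sources used here do not state the aligner, annotation or strand setting of these counts. Vehicle columns match the titles. IL1B columns, numbered 1 to 3 where the titles have 1, 3 and 4, were assigned to the group only.

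The test was run with edgeR 4.0.16 under R 4.3.3 (TMM, filterByExpr, quasi-likelihood F test, IL1B against vehicle, all 7 libraries, no covariate), with Benjamini-Hochberg adjustment over 12480 genes at 0.05. Alternatives used DESeq2 1.42.0 and limma 3.58.1. SE was taken as the size of the log2 fold change divided by the root of the F statistic. The test was first run on simulated data with known changes. It recovered 47.4% of 1.25-fold changes, 75% of 1.5-fold and 97.1% of 2-fold, and 4.03% of its calls were false. The members differed by 1.06-fold to 1.28-fold, so a member not past the threshold may still differ. A total of 3 counts equals 0.399 to 0.562 CPM of these totals. Within groups the chi-square per degree of freedom was 1.52 to 4.88 between libraries, so all were kept as separate. It was 2.87 to 4.88 for pairs that include library 2 of their group and 1.52 to 1.69 for the other pairs.

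Members, gene lists, tests and the naming rule (all members, and up to 4 genes past the threshold per list) were chosen with earlier results of these data known. Gene models were GENCODE M21 on GRCm38, the assembly of mm10; 97.8% of symbols matched, and blastn 2.17.0 found no other gene sharing over 8.02% of a member's longest coding transcript at 95% identity.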

Additional observations from a re-analysis of the deposited data

Results flagged for a closer look

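Dixon's test for 1 distant library was applied to the 4 vehicle values of 26 quantities: the 8 members, their sum and the 17 named genes of the other lists. It marked 2, where chance gives about 1 in 20 (1.3), and no member was among them. Vehicle library 3 stood apart for Dynll2 at 264.6 CPM, with the others at 292 to 297.1 CPM. Vehicle library 4 stood apart for Mapre2 at 180.9 CPM, with the others at 165.4 to 167.4 CPM.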

How the results depend on the processing

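Every member kept the direction of its log2 fold change under all 16 alternatives, but calls moved with most of them. Of the members, 1 was higher and 3 lower in the reported fit. Higher members numbered 3 with no low-count filter (Mtap1b 0.23 and Mtap4 0.24 added), 2 with a minimum of 1 CPM in 3 libraries (Mtap1b 0.24 added), 3 with the length and GC trend removed (Mtap1b 0.26 and Mtap4 0.25 added) and 2 with library 2 of both groups left out (Mtap1b 0.19 and Mtap4 0.21 in, Mtap1s 0.18 out, and Mtap6 -0.25 out of the lower ones). DESeq2 left 1 lower member, with Mtap6 at -0.27 and Mtap9 at -0.25 no longer past the threshold. The 3 other scalings and limma-voom changed no member's call. With no filter 19020 genes were tested and with the CPM minimum 13107; the cause of the shifts was not tested.

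Leaving out each library in turn gave log2 fold changes of -0.40 to -0.31 for Mtap1a, 0.16 to 0.28 for Mtap1b, 0.19 to 0.35 for Mtap1s, -0.14 to -0.02 for Mtap2, 0.18 to 0.33 for Mtap4, -0.33 to -0.22 for Mtap6, -0.21 to -0.0021 for Mtap7 and -0.32 to -0.19 for Mtap9. The count of higher members ran from 0 to 3 and of lower members from 0 to 3.

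Over all genes, 968 were higher and 406 lower; leaving out 1 library gave 769 to 1128 and 252 (without IL1B library 3) to 589, and dropping library 2 from both groups gave 676 lower. With total-count scaling 60.3% of calls were increases, against 70.5%. The median over all genes was then -0.041 on the log2 scale. With library 2 of both groups left out, 6 tubulins and 4 motors were higher, and 4 other microtubule-associated proteins, 3 plus-end or severing proteins and 3 motors were lower. With the length and GC trend removed, 5 tubulins were higher and 1 lower. With DESeq2 and with limma-voom 0 motors were lower. Leaving out 1 library gave 2 to 6 higher tubulins, 0 to 4 higher and 0 to 1 lower motors, 5 to 7 higher and 2 to 3 lower other microtubule-associated proteins, and 2 to 3 higher plus-end or severing proteins.

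No paired analysis was possible because the IL1B columns do not carry the replicate numbers of the titles. The largest difference of a member was that of Mtap1a, -0.35 on the log2 scale with all 7 libraries and -0.42 with library 2 of both groups left out. Each member rests on 97 to 2986 counts per library.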
